A study of Rattus norvegicus with 119 samples.

Results

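The genes described here encode voltage-gated calcium and sodium channels and the hyperpolarization-activated HCN channels of the rat hippocampus. Members were all probe sets with exactly 1 gene symbol that began with Cacna, Cacnb, Cacng, Scn and a digit, or Hcn and a digit. The rule took 39 of 29214 probe sets, for 38 genes, since Scn3a had 2. It left out 1 probe set with several such symbols. The members were 9 calcium channel alpha1 subunits, 3 alpha2delta subunits, 4 beta subunits, 8 genes of the Cacng (gamma) family, 9 probe sets of sodium channel alpha subunits, 3 sodium channel beta subunits and 3 HCN channels.

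Calcium and sodium channels open when the membrane is depolarised. The alpha1 and alpha subunits form the pore, and the beta, alpha2delta and sodium channel beta subunits set how many channels reach the membrane and how they open and close. Sodium channels carry the upstroke of the action potential, P/Q- and N-type calcium channels (Cacna1a and Cacna1b) trigger transmitter release, L-type channels (Cacna1c and Cacna1d) couple activity to transcription, and T-type channels (Cacna1g, Cacna1h and Cacna1i) open near rest and support burst firing. Most Cacng genes of the brain encode auxiliary subunits of AMPA-type glutamate receptors, and HCN channels carry a pacemaker current that opens on hyperpolarisation. Lead ions are known to block calcium channels.

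Hippocampal RNA of each rat was hybridised to a 1-colour Affymetrix array of its own, and values were log2 intensities. Males and females of the Fischer, Long Evans and Sprague Dawley strains ate control chow or chow containing lead acetate, which was dosed at 250 or 750 ppm and given either perinatally or postnatally. There were 30 groups of 4 animals, apart from 3 control males in Sprague Dawley. In the perinatal groups the dams ate lead chow from 10 days before breeding until weaning, and their pups then ate control chow. Postnatal groups received lead from birth to postnatal day 45, and every animal was dissected on day 55. Litters were not given, so the p-values measure the spread between these animals, which may be littermates. In whole tissue, fewer cells of a type and less RNA per cell cannot be told apart. Of markers of hippocampal neurons 12 were found, among them the granule cell factor Prox1 at 10.10, the CA1 gene Wfs1 at 11.81 and the pyramidal cell factor Neurod6 at 11.82. The lowest was Rgs14, at 8.87. The neocortex markers Fezf2 and Rasgrf2 were at 10.06 and 10.57, so these levels do not separate hippocampus from neocortex.

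Several sets of arrays stood apart. Titles carried successive animal numbers. The 2 lowest numbers of each group are called lower label numbers here and the others upper label numbers, with 1 exception. Of the 3 Sprague Dawley control males only replicate 1 was lower, so the values of that group within lower label numbers rest on that animal. The labels do not say what these numbers stand for. In 8 arrays, none of them Fischer, X-linked transcripts lay on the side of the opposite sex. Both Eif2s3 and the mean of Ddx3x and Pbdc1 were past the midpoint of the male and female medians there. These medians were taken within strain and label-number set, and a level typical of the other sex was not required. In Long Evans the arrays were those of control females 1 and 3 and control male 4. In Sprague Dawley they were control female 2, replicate 4 of the perinatal 750 ppm males, and in the postnatal 750 ppm groups replicate 2 of the males with replicates 2 and 4 of the females. In 3 arrays of males, pineal gland genes were high: Fischer control 2, Fischer postnatal 750 ppm replicate 4 and Long Evans control 4. These lay above the widest gap in the mean of the pineal list. Below the gap, an exposed Sprague Dawley array with an upper label number reached 7.09, where its set averaged 6.24. It was not counted among the arrays high in pineal genes. Results that lost their call without the arrays against their sex label or without those high in pineal genes are named with the result.

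Promoter sequences from RefSeq (build GRCr8, 250 bases before to 50 after an annotated start) were found for 26 of the 38 genes, in 29 windows. The windows below belong to some members called in a strain or label-number comparison: Scn8a, Cacnb2 with both of its starts, and the neighbouring genes Scn2b and Scn4b. No window was found for Cacna1g, Cacna1i, Cacng7, Cacnb1 or Scn1a. Each is printed in lower case, 5′ to 3′, with capitals for the GC box, GGGCGG or its reverse complement CCGCCC.
Scn8a, chr7:133860977-133861276, plus strand: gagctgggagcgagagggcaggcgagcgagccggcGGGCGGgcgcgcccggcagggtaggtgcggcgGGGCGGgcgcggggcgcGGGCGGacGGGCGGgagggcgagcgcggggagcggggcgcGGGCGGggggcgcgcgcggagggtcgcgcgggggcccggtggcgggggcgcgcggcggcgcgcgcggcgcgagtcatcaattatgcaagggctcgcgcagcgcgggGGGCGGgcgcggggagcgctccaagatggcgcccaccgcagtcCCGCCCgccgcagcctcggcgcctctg
Cacnb2, upstream start, chr17:82472965-82473264, plus strand: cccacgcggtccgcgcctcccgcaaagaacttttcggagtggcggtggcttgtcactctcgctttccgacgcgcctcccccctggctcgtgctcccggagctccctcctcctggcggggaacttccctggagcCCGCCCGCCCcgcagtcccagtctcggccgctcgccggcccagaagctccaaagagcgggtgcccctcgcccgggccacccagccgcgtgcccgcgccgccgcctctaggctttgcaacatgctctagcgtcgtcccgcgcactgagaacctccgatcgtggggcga
Cacnb2, downstream start, chr17:82596542-82596841, plus strand: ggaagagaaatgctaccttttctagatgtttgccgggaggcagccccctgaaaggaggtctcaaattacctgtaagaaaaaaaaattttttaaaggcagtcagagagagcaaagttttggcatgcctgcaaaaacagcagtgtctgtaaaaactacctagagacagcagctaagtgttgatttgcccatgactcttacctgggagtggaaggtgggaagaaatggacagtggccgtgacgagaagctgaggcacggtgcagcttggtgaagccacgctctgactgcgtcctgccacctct
Scn2b, chr8:54322133-54322432, plus strand: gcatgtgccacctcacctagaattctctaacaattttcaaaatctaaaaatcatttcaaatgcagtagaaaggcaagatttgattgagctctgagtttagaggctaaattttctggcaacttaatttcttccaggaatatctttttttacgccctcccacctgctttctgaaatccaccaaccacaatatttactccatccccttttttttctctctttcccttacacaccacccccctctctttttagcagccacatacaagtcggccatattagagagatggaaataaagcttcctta
Scn4b, chr8:54343623-54343922, plus strand: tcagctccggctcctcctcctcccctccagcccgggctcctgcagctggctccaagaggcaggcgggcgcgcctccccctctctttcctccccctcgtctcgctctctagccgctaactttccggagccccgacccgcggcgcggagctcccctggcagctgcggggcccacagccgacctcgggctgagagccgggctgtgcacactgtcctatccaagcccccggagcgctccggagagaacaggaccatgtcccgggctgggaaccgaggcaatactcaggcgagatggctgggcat

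The Scn8a window held 7 GC boxes and had a GC content of 84.7%. The upstream start of Cacnb2 held 2 overlapping GC boxes at 71.7% GC. Its downstream start held none at 48.7%, as did Scn2b at 39% and Scn4b at 70%. Among the members, 16 of 29 windows (55.2%) held a GC box on either strand, beside 33.1% of all 33469 promoter windows of this length. The cyclic AMP response element TGACGTCA was in 0 of 29 member windows and 1.83% of all windows. The letters TTCAGCACC, the left part of the site of the neuronal repressor REST, were in 1 member window, that of Cacng3, and in 0.356% of all. TATAAA was in 1, that of Cacng2, and in 14.2% of all. The metal response element, searched as TGCACNC or TGCGCNC, was in 11 member windows (37.9%) and 24.2% of all. Each was searched on both strands. Cacna2d1 entered with several overlapping windows, each with a GC box and a metal response element, so the counts are of windows and not of genes. A match of letters is a description and not a binding site. Member windows had a median GC content of 63.7%, against 51.7% over all windows.

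Most channel genes were well above the low end of the array. Of the 39 members, 33 had a mean level above the 40th percentile of all probe sets, 6.82. The 6 below it were Cacna1f of the retina, the muscle gene Cacng1, Cacng6, the pain-neuron sodium channels Scn10a and Scn11a, and the sodium-sensing channel gene Scn7a. Among the alpha1 subunits, mean levels were 11.09 for Cacna1a, 10.02 for Cacna1b, 9.61 for Cacna1c, 9.72 for Cacna1d, 11.19 for the R-type subunit Cacna1e, 9.17 for Cacna1g, 10.05 for Cacna1h and 10.32 for Cacna1i. These are log2 intensities of different probe sets, which cannot be ranked against each other. The accessory calcium channel subunits Cacna2d1, Cacna2d2, Cacna2d3 and Cacnb4 averaged 10.73, 8.77, 11.21 and 11.03.

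The AMPA receptor auxiliary genes Cacng2 (stargazin), Cacng3, Cacng4, Cacng5 and Cacng8 averaged 10.44, 11.30, 10.00, 8.50 and 10.40. Of the sodium channel pores, Scn1a, typical of fast-spiking interneurons, averaged 9.72, Scn2a and Scn8a of principal neurons 11.44 and 10.76, and Scn3a, which is highest before birth, 9.24 and 9.14 by its 2 probe sets. The beta subunits Scn2b, Scn3b and Scn4b averaged 10.92, 12.51 and 7.77, and the pacemaker channels Hcn2, Hcn3 and Hcn4 9.80, 8.34 and 7.67. Over the 30 group means, the span from lowest to highest group ran from 0.18 in Scn3b to 0.60 in Cacna1g. The lowest Cacna1g group was the Fischer male controls, at 8.92, and the highest the Long Evans females after perinatal 250 ppm, at 9.52.

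The plot of levels by strain gives every animal. Strain took a median of 24% of a member's sum of squares, beside 15% over all probe sets. The label-number sets within strains took 11.6% (8.27% over all), sex and treatment within strains 13.8% (17.7% over all), and the remainder was 41.1% (52.1% over all). Strain's share was highest for Cacnb1 (71.2%), Cacna1i (67.1%), Cacna1g (65.8%) and Cacng7 (62.7%). The share of sex and treatment was highest for Scn11a, at 35.3%. These shares are descriptions and were not tested. The terms cannot be set against each other, since strain separates 3 levels while sex and treatment separate the 30 groups. Random spread alone gives the term with more levels a larger share.

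**Figure D1:**
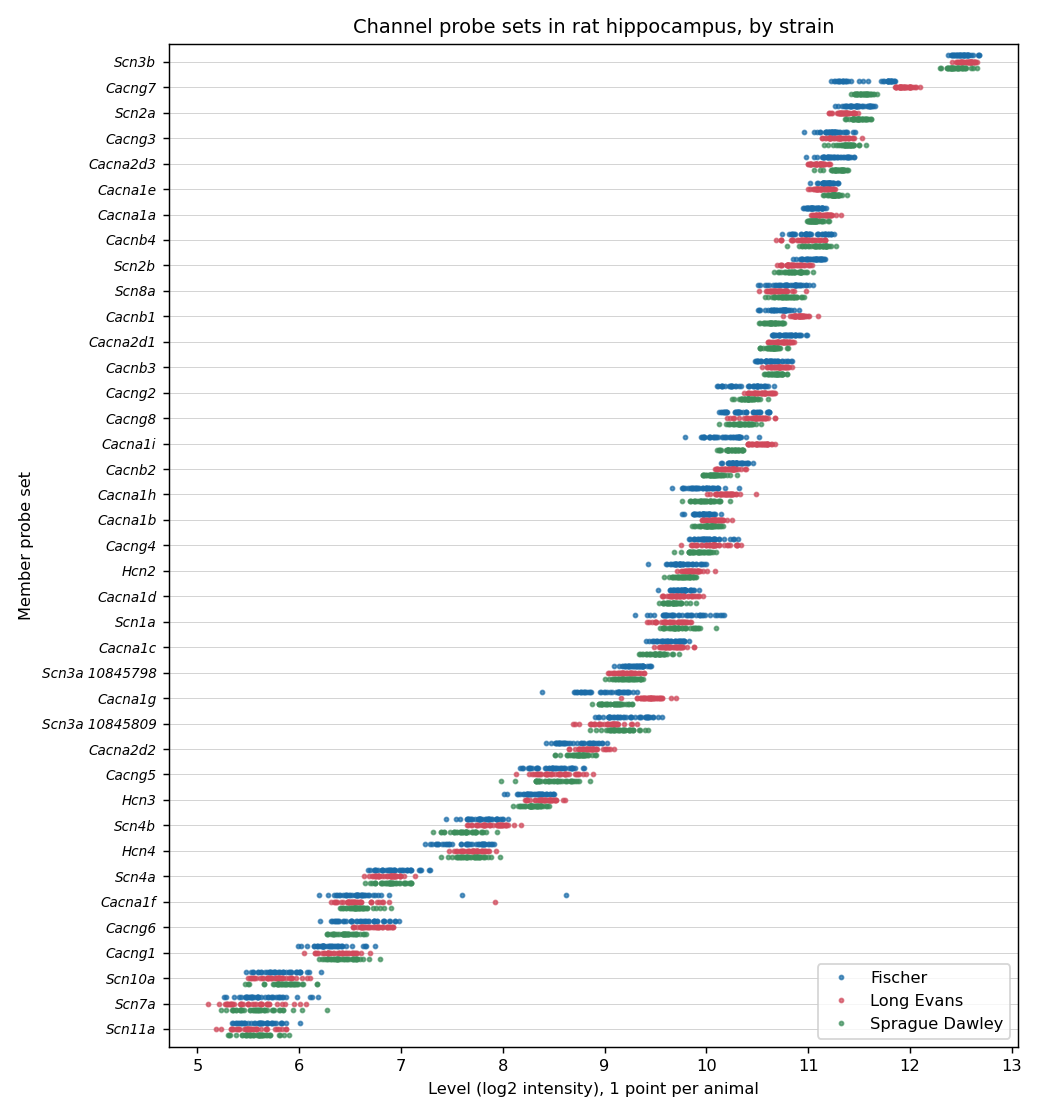
Log2 levels (x axis) of the 39 member probe sets (y axis, ordered by mean level), with 1 point per animal and colours for the 3 strains (40 Fischer, 40 Long Evans and 39 Sprague Dawley animals). Means run from 5.57 in Scn11a to 12.51 in Scn3b, and 3 single points of Cacna1f lie at 7.60 to 8.62, above its other points.

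Control animals of the strains differed in T-type channel genes, the AMPA receptor auxiliary gene Cacng7 and several accessory subunits. In the T-type genes and Cacng7 the calls set Long Evans apart, in Cacna1h from Fischer alone. Sprague Dawley minus Fischer was not called in these genes. Cacna1g, a T-type pore, ranged from 9.44 to 9.56 in the 8 Long Evans controls, with a median of 9.50. The 8 Fischer controls ranged from 8.70 to 9.23 (median 8.92) and the 7 Sprague Dawley controls from 8.87 to 9.21 (median 9.09). Every Long Evans control lay above every control of the other strains. The Long Evans level was higher than Fischer by 0.53 ± 0.08 (log2, SE; limma, adjusted p = 1.49e-07), and Sprague Dawley was below Long Evans by -0.42 ± 0.08 (limma, adjusted p = 5.63e-05). Within lower label numbers, Long Evans exceeded Fischer by 0.35, and within upper label numbers by 0.71. The Sprague Dawley minus Long Evans values within these sets were -0.53 and -0.36.

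Cacna1i, the T-type pore that is best known from thalamus and other forebrain, showed the same order. It ranged from 10.48 to 10.67 in Long Evans controls, from 9.98 to 10.39 in Fischer and from 10.22 to 10.36 in Sprague Dawley, so that Long Evans did not overlap the others. The difference was 0.41 ± 0.06 against Fischer (limma, adjusted p = 2.23e-08) and -0.27 ± 0.06 for Sprague Dawley minus Long Evans (limma, adjusted p = 0.000336). Within lower and upper label numbers it was 0.24 and 0.57 against Fischer, and -0.26 and -0.29 for Sprague Dawley minus Long Evans. Cacna1h, the T-type pore also found in sensory neurons, was higher in Long Evans than in Fischer by 0.20 ± 0.05 (limma, adjusted p = 0.00286). That rested on upper label numbers (0.31), since in lower label numbers the difference was 0.09 (limma, adjusted p = 0.371).

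Cacng7, which encodes an auxiliary subunit of AMPA receptors, ranged from 11.85 to 11.99 in Long Evans controls and from 11.46 to 11.60 in Sprague Dawley. Fischer controls lay between 11.74 and 11.82 in the lower label numbers and between 11.29 and 11.39 in the upper ones. Long Evans was thus above every control of the other strains, while Fischer fell on either side of Sprague Dawley. The difference was 0.36 ± 0.08 for Long Evans minus Fischer (limma, adjusted p = 0.000304) and -0.38 ± 0.08 for Sprague Dawley minus Long Evans (limma, adjusted p = 0.000295). Within lower and upper label numbers it was 0.14 and 0.59, and -0.42 and -0.35. Its genomic neighbour Cacng6 was lower in Sprague Dawley than in Long Evans by -0.27 ± 0.08 (limma, adjusted p = 0.00921). With fewer animals it missed the threshold at a similar size, at -0.26 without the arrays against their sex label (limma, adjusted p = 0.054) and -0.21 within upper label numbers (0.11). The gene between them, Cacng8, was not called in any control comparison.

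Markers of thalamus, where Cacna1g, Cacna1i and Hcn4 are also expressed, gave 5 probe sets. In control animals their mean level was 8.63 in Long Evans, 8.61 in Fischer and 8.57 in Sprague Dawley. The glutamate transporter gene Slc17a6, at a mean of 8.42, and the kinase gene Prkcd, at 8.05, belong to this list. Long Evans minus Fischer called 2 of the 5 higher, where 25.1% of all probe sets were called. Sprague Dawley minus Long Evans called 2 lower, where 24.5% of all were called. With the list's mean as a covariate, the Long Evans minus Fischer differences were 0.52 for Cacna1g, 0.40 for Cacna1i and 0.35 for Cacng7, all still called by limma. Vascular smooth muscle markers, 8 probe sets, averaged 8.63 in Fischer controls, 8.33 in those of Long Evans and 8.58 in those of Sprague Dawley. Of these markers 6 were lower in Long Evans than in Fischer, beside the 25.1% of all probe sets called in either direction. Their part in the differences of Cacna1c, Cacna1h and Cacnb2, which smooth muscle also expresses, was not tested.

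Cacnb1 and Cacnb2 encode cytoplasmic subunits that carry the calcium channel pore to the membrane. Cacnb1 ranged from 10.82 to 10.97 in Long Evans controls, from 10.63 to 10.86 in Fischer and from 10.59 to 10.77 in Sprague Dawley. Long Evans and Sprague Dawley did not overlap, and Sprague Dawley was lower by -0.24 ± 0.04 (limma, adjusted p = 3.73e-06), at -0.31 within lower and -0.19 within upper label numbers. Long Evans exceeded Fischer by 0.16 ± 0.04 (limma, adjusted p = 0.000808). That call was lost within lower label numbers (0.12, limma, adjusted p = 0.0612).

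Cacnb2 was highest in Fischer controls, from 10.24 to 10.39, beside 10.10 to 10.27 in Long Evans and 9.98 to 10.16 in Sprague Dawley. Fischer and Sprague Dawley did not overlap. The Sprague Dawley minus Fischer difference was -0.23 ± 0.04 (limma, adjusted p = 2.08e-06) and nearly equal within lower (-0.25) and upper (-0.24) label numbers. For Long Evans minus Fischer it was -0.15 ± 0.04 (limma, adjusted p = 0.0013), and within lower label numbers it was -0.12 and not called (limma, adjusted p = 0.212). The upstream Cacnb2 window above is GC-rich and the downstream one is not. Cacnb2 had 1 member probe set, and its values were not split by start.

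Scn2b and Scn4b are adjacent genes whose products are linked to the sodium channel pore by a disulfide bond. Scn2b ranged from 11.05 to 11.15 in Fischer controls, from 10.73 to 11.01 in Long Evans and from 10.80 to 11.05 in Sprague Dawley. Fischer lay above every control of both other strains, though its lowest animal and the highest Sprague Dawley one differed by little. The difference was -0.21 ± 0.04 for Long Evans (limma, adjusted p = 7.76e-05) and -0.22 ± 0.05 for Sprague Dawley (limma, adjusted p = 0.000304), each minus Fischer. Both were called within lower and within upper label numbers. Scn4b was lower in Sprague Dawley than in Fischer controls by -0.24 ± 0.07 (limma, adjusted p = 0.0109), with -0.26 in lower (limma, adjusted p = 0.0503) and -0.20 in upper label numbers.

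Counted over the family, Long Evans minus Fischer called 10 of 39 members, 6 higher and 4 lower, where 25.1% of all probe sets were called. The 39 members had a median difference of 0.04, beside -0.01 over all probe sets. Besides those above, Cacna1b was higher by 0.13 ± 0.04, and the alpha2delta gene Cacna2d3 and the sodium channel gene Scn2a were lower by -0.17 ± 0.04 and -0.15 ± 0.04. Sprague Dawley minus Fischer called 7, where 10.5% of all were called. Here Cacna1b was higher by 0.13 ± 0.04, Cacna1e by 0.13 ± 0.03 and Cacng3 by 0.13 ± 0.05, and Cacna2d1, the target of gabapentin, was lower by -0.15 ± 0.04. These 7 were 3 higher and 4 lower, with a median of -0.02 over the members and 0.01 over all.

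Sprague Dawley minus Long Evans called 11, of which 4 were higher and 7 lower, where 24.5% of all were called. The median was -0.05 over the members and 0.02 over all. Cacna2d3 was higher by 0.18 ± 0.05, Scn2a by 0.16 ± 0.04, Cacna1e by 0.14 ± 0.03 and Cacng3 by 0.12 ± 0.05. The L-type gene Cacna1c was lower by -0.13 ± 0.05 and Scn3b by -0.11 ± 0.04. The member counts were close to these backgrounds in both comparisons with Long Evans and above it for Sprague Dawley minus Fischer, a difference that was not tested. The 3 comparisons share control animals pairwise. No member of the HCN family was called in any of them.

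Some of these smaller calls were lost in fits on fewer animals. The lower set of the Sprague Dawley control males was replicate 1 alone. Within lower label numbers, which hold about as many controls as the upper ones, the Long Evans minus Fischer differences were 0.12 for Cacna1b (limma, adjusted p = 0.167), -0.08 for Cacna2d3 (0.36) and -0.11 for Scn2a (0.14). For Sprague Dawley minus Fischer they were 0.06 for Cacna1b (limma, adjusted p = 0.552), 0.11 for Cacna1e (0.137), 0.10 for Cacng3 (0.298) and -0.15 for Cacna2d1 (0.107), and for Sprague Dawley minus Long Evans 0.14 for Cacna2d3 (0.111), 0.09 for Cacna1e (0.226), 0.04 for Cacng3 (0.697) and -0.05 for Scn3b (0.642). Within upper label numbers the lost calls were Cacna1e (0.13, limma, adjusted p = 0.0589) and Cacng3 (0.14, 0.0961) against Fischer, and Scn2a (0.12, 0.106) and Cacna1c (-0.08, 0.423) for Sprague Dawley minus Long Evans. All of these kept their sign.

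Without the arrays against their sex label, Cacna1b in Long Evans minus Fischer was 0.10 (limma, adjusted p = 0.0878), and Cacng3 was 0.13 (0.0617) against Fischer and 0.12 (0.113) against Long Evans. Cacna1c was -0.10 (limma, adjusted p = 0.329) and Scn3b -0.07 (0.347). Without the arrays high in pineal genes, an alternative chosen after the values were seen, Cacna1c was -0.12 (limma, adjusted p = 0.0947), Cacng3 against Fischer 0.14 (0.0517) and Scn3b -0.11 (0.0528). Leaving out 1 control at a time ended the call of Cacna1c in 9 of 23 cases, of Cacng3 in 9 against Fischer and 6 against Long Evans, of Scn3b in 7, and of Cacna2d1 and of Cacna1b against Fischer in 1 each. With label-number sets as a block within each strain, every call named for these comparisons held, and the count for Sprague Dawley minus Long Evans rose to 17. The share of all probe sets called in that fit is not given here.

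**Figure D2:**
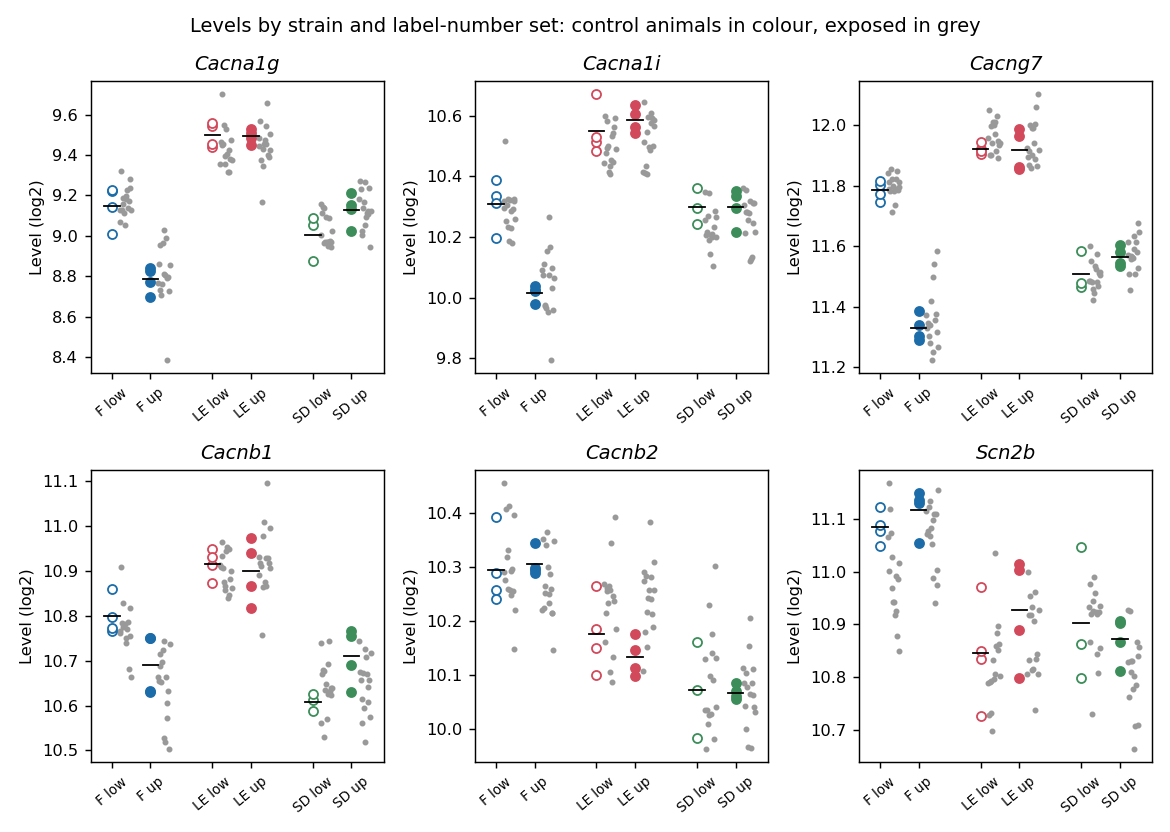
Log2 levels (y axis) of 6 members by strain (F, Fischer; LE, Long Evans; SD, Sprague Dawley) and label-number set (low, up), with control animals as coloured circles (open, lower numbers), their mean as a bar and exposed animals as grey points. Cacna1g, Cacna1i and Cacng7 of Long Evans controls lie above all other controls, and in these 3 genes Fischer controls with upper label numbers lie below those with lower ones.

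Within Fischer rats, the label-number sets differed in most channel genes. Upper minus lower label numbers called 26 of 39 members, 10 higher and 16 lower, where 60.9% of all probe sets were called. The median was -0.04 over the members and -0.07 over all probe sets. The member count was close to that background. Each treatment group held animals of both sets, so this split crosses the exposure groups.

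Cacng7 ranged from 11.71 to 11.85 (median 11.80) in the 20 Fischer animals with lower label numbers, and from 11.22 to 11.59 (median 11.34) in the 20 with upper ones. The sets did not overlap, and upper was lower by -0.44 ± 0.03 (limma, adjusted p = 5.27e-16). In Cacna1g the lower set ranged from 9.01 to 9.32 and the upper from 8.39 to 9.03, with only a slight overlap and a difference of -0.36 ± 0.04 (limma, adjusted p = 3.43e-10). The other lower genes included Cacng6 (-0.31), Hcn4 (-0.30), Cacng2 (-0.28), the alpha2delta gene Cacna2d2 (-0.27), Cacna1i (-0.25) and Cacng8 (-0.23). Of the Cacng family 5 of 8 were lower and 0 higher, and of the alpha1 subunits 5 of 9 were lower and 0 higher.

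The sodium channel pores included both directions, with 5 of 9 probe sets higher, 3 lower and 1 not called. Scn1a ranged from 9.30 to 9.86 in the Fischer lower set and from 9.66 to 10.17 in the upper set, a difference of 0.34 ± 0.04 (limma, adjusted p = 2.14e-08). Scn8a ranged from 10.51 to 10.83 and from 10.77 to 11.05, a difference of 0.21 ± 0.03 (limma, adjusted p = 8.76e-08). Both genes overlapped between the sets. Scn3a was higher by 0.27 and 0.09 on its 2 probe sets and Scn2a by 0.14. Scn4a (-0.15), Scn7a (-0.22) and Scn11a (-0.09), all at low levels, were lower. After a further quantile normalization these 3 were -0.06 (limma, adjusted p = 0.194), -0.14 (0.0596) and -0.01 (0.914), and Scn2b, higher by 0.07, was 0.04 (0.0997). Scn11a was also not called without the arrays high in pineal genes (-0.09, limma, adjusted p = 0.0599) or with array weights (-0.06, 0.156). The other called members were Cacna2d3 (0.18), Cacnb4 (0.15), Cacna2d1 (0.13) and Cacnb3 (0.09), which were higher, and Cacng5 (-0.20), Cacna1h (-0.17), Cacna1c (-0.14), Cacnb1 (-0.12) and Cacna1a (-0.04), which were lower. Leaving out 1 of the 40 animals ended the call of Cacna1a in 24 cases and of Scn11a in 21.

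In Sprague Dawley rats some of these genes differed with the sign turned. Upper minus lower label numbers called 8 members, 3 higher and 5 lower, where 18.9% of all probe sets were called. Scn1a fell by 0.14 ± 0.04 (limma, adjusted p = 0.00315), Cacng5 by 0.14 ± 0.05 (limma, adjusted p = 0.0255) and Scn8a by 0.11 ± 0.02 (limma, adjusted p = 0.000536). The beta subunits Scn2b and Scn3b fell by 0.08 ± 0.03 each (limma, adjusted p = 0.0178 and 0.0287). Cacna1g rose by 0.10 ± 0.03 (limma, adjusted p = 0.00744), Cacng7 by 0.07 ± 0.02 (limma, adjusted p = 0.00553) and Cacna1b by 0.07 ± 0.02 (limma, adjusted p = 0.0376). Cacng5 had the same sign as in Fischer, while Scn1a, Scn8a, Scn2b, Cacna1g and Cacng7 had the opposite one. Cacna1b was 0.06 and not called without the arrays against their sex label (limma, adjusted p = 0.0898), and its call ended in 16 of 39 cases when 1 animal was left out. That of Scn3b ended in 2 cases, and after quantile normalization Scn3b was -0.06 (limma, adjusted p = 0.163).

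In Long Evans rats limma called 0 members between the sets and 1 had an unadjusted p under 0.05, where 0.0993% of all probe sets were called. The differences ranged from -0.06 to 0.09. The difference of the label-number difference between strains was tested after the values were seen. Long Evans and Fischer differed in 22 members, where 43.3% of all probe sets were called. Sprague Dawley and Fischer differed in 24, where 55.3% were called, by 0.51 ± 0.03 in Cacng7 and -0.48 ± 0.05 in Scn1a. Sprague Dawley and Long Evans differed in 5, where 10.5% were called.

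Markers of several cell types and regions also differed between the Fischer sets, to be read against the 60.9% of all probe sets called. Of 11 interneuron probe sets 7 were lower and 3 higher in upper label numbers, with somatostatin (Sst) at -0.48 ± 0.03. Of 10 striatum probe sets 6 were lower and 0 higher. Of 5 thalamus probe sets 3 were lower and 1 higher, and of 8 vascular smooth muscle probe sets 5 were lower and 1 higher. Hippocampus markers had 5 higher and 4 lower of 12, oligodendrocyte precursor markers 2 higher and 3 lower of 7 (Sox10 at -0.27), skeletal muscle markers 0 higher and 3 lower of 9, neocortex markers 1 each of 2, and choroid plexus markers 0 of 13. In Fischer controls the interneuron list averaged 10.08 in the lower and 9.98 in the upper set, the striatum list 8.06 and 7.89, and the thalamus list 8.65 and 8.57. Their part in the channel differences was not tested, and with the thalamus list's mean as a covariate only Cacna1a lost its call among the 26 (limma, adjusted p = 0.0828).

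**Figure D3:**
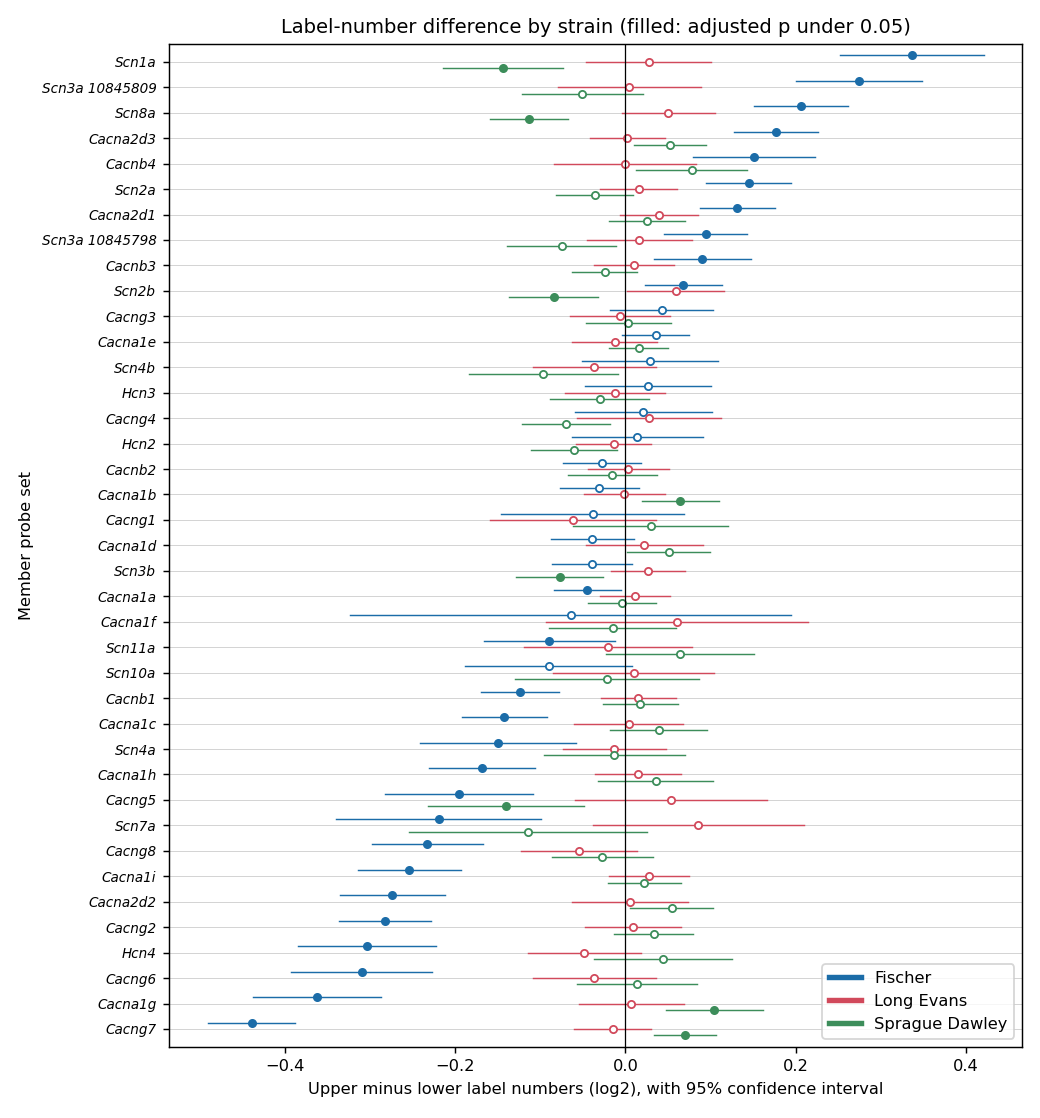
Upper minus lower label numbers (x axis, log2) for each member (y axis, ordered by the Fischer value), with 95% confidence intervals and 1 colour per strain. Filled points were called by limma, 26 for Fischer, 0 for Long Evans and 8 for Sprague Dawley; the Fischer values run from -0.44 in Cacng7 to 0.34 in Scn1a.

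Lead exposure was compared with the controls of the same strain and sex. Limma called 0 of 39 members in every one of the 24 comparisons of an exposed group with its controls. Of all tests on all probe sets, 0.00214% were called in the 8 Fischer comparisons, 0.0424% in Long Evans and 0.00813% in Sprague Dawley. At an unadjusted p under 0.05, 7 member tests passed in Fischer, 24 in Long Evans and 5 in Sprague Dawley. At that threshold the share of all probe sets ran from 1.12% to 4.26% over the Fischer comparisons, from 3.53% to 9.34% over those of Long Evans and from 2.28% to 4.61% over those of Sprague Dawley. The most members in 1 comparison were 7 of 39, in Long Evans males at perinatal 750 ppm, where 7.3% of all probe sets passed. The 4 exposed groups of a strain and sex share their controls, so these counts are not independent.

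The mean of the 8 lead effects of each strain was also called in 0 members by limma, where 0% of all probe sets were called in Fischer, 0.212% in Long Evans and 0.0171% in Sprague Dawley. The unadjusted p was under 0.05 in 3, 3 and 0 members, and in 2.5%, 7.45% and 3.64% of all probe sets. The mean effects ranged from -0.07 to 0.08 in Fischer, from -0.21 to 0.16 in Long Evans and from -0.10 to 0.09 in Sprague Dawley, and the medians were -0.01, 0.00 and -0.01. The median half-width of an unadjusted 95% confidence interval was 0.10, 0.07 and 0.08. A call needed an adjusted p under 0.05, so effects larger than these could also go uncalled. The lack of a call does not show that effects were absent. At both ends the Long Evans range was set by Cacna1f (-0.21 ± 0.09) and Scn4b. Cacna1f was high in 1 of these controls, described at the end.

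Scn4b, a sodium channel beta subunit that is known for resurgent current, had the smallest p of any mean lead effect. In Long Evans male controls it was 7.81, 7.97, 7.70 and 7.64 in animals 1 to 4, and in female controls 7.82, 7.76, 7.74 and 7.69. Males averaged 7.97 ± 0.16 (SD, n = 4) after perinatal 250 ppm, 7.87 ± 0.11 after perinatal 750 ppm, 7.97 ± 0.04 after postnatal 250 ppm and 7.85 ± 0.15 after postnatal 750 ppm. Females averaged 7.89 ± 0.14, 8.02 ± 0.06, 7.91 ± 0.08 and 7.93 ± 0.11 in the same order. All 8 exposed means lay above their controls, at 7.78 ± 0.14 in males and 7.75 ± 0.05 in females.

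Exposed females ranged from 7.96 to 8.10 at perinatal 750 ppm, clear of the control range of 7.69 to 7.82, and from 7.81 to 7.99 at postnatal 250 ppm, which overlapped it. The perinatal 750 ppm females were the only exposed Long Evans group that did not overlap its controls. The mean effect was 0.16 ± 0.04 with a 95% interval that excluded 0, but it did not pass (limma, adjusted p = 0.141). Under the alternatives its adjusted p ranged from 0.0558 with array weights to 0.448 without the arrays against their sex label (limma). In Fischer it was -0.05 ± 0.05 and in Sprague Dawley 0.02 ± 0.06, and the Long Evans minus Fischer difference of these effects, 0.22 ± 0.07, did not pass either (limma, adjusted p = 0.498). Oligodendrocyte precursor markers were higher on average in exposed Long Evans animals. Their list mean ranged from 8.66 to 8.82 in the 8 controls and from 8.70 to 9.02 in the 32 exposed animals. The median lead effect of the 7 probe sets was 0.11, and Gpr17 was called higher, by 0.21 ± 0.04 (limma, adjusted p = 0.00706), as 1 of 7. Of all probe sets 0.212% were called there. In Sprague Dawley the list averaged 8.81 in controls and 8.86 in exposed animals, and in Fischer 8.75 and 8.69. Choroid plexus markers had a median of -0.37 in Long Evans, with 0 of 13 called. With the choroid plexus mean as a covariate Scn4b was 0.16, and the part of the precursor markers was not tested. Scn4b group means lay between 7.69 and 7.95 over the 10 Fischer groups and between 7.56 and 7.69 over the 10 Sprague Dawley groups.

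The next smallest p-values belonged to calcium channel genes. In Long Evans, Cacnb2 was 0.08 ± 0.03 above control (limma, adjusted p = 0.384), and 0.17 ± 0.05 in males at perinatal 750 ppm (limma, adjusted p = 0.341). In Fischer, Cacna1b and the L-type gene Cacna1d were 0.08 ± 0.03 each (limma, adjusted p = 1 for both). In Sprague Dawley the smallest was Cacna1i at -0.06 ± 0.03 (limma, adjusted p = 0.999), and in the females at perinatal 750 ppm it was -0.15 ± 0.05 (limma, adjusted p = 1). Scn11a followed at -0.10 ± 0.06 (limma, adjusted p = 0.999). None of these passed.

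These 6 pore genes had mean lead effects whose intervals included 0 in each strain. For the P/Q-type pore Cacna1a, the mean effect ± SE was -0.01 ± 0.03 among Fischer rats, 0.05 ± 0.03 among Long Evans and -0.02 ± 0.03 among Sprague Dawley. For the L-type pore Cacna1c, the mean effect ± SE was 0.03 ± 0.04 among Fischer rats, 0.00 ± 0.04 among Long Evans and -0.02 ± 0.04 among Sprague Dawley. For the T-type pore Cacna1g, the mean effect ± SE was 0.02 ± 0.09 among Fischer rats, -0.06 ± 0.04 among Long Evans and 0.00 ± 0.04 among Sprague Dawley. The widest of these intervals was that of Cacna1g in Fischer, from -0.16 to 0.21, the strain whose label-number sets differed in this gene. The sodium channel pore Scn1a gave -0.03 ± 0.09, -0.03 ± 0.04 and 0.00 ± 0.06 in the same order. Scn2a, the main pore of excitatory axons gave -0.03 ± 0.04, 0.01 ± 0.03 and -0.01 ± 0.03 in the same order. The pacemaker channel Hcn2 gave 0.00 ± 0.05, 0.03 ± 0.03 and 0.03 ± 0.04 in the same order.

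The smallest unadjusted p of any single lead comparison was that of Scn11a, a sodium channel of nociceptors, in Fischer males at perinatal 750 ppm. Its values were 5.75, 6.01, 5.68 and 5.69 in the exposed animals and 5.34, 5.42, 5.50 and 5.40 in controls. These groups did not overlap. The difference was 0.37 ± 0.09 (limma, adjusted p = 1), at levels under the 40th percentile of the array. In Sprague Dawley males at the same exposure it was -0.29 ± 0.10 (limma, adjusted p = 1), which is the opposite sign.

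Dose, period and sex gave no called member by limma. The 750 minus 250 ppm contrast had differences from -0.10 to 0.13, and limma called 0.0434% of all tests on all probe sets. An unadjusted p under 0.05 was found in 3, 2 and 2 members in Fischer, Long Evans and Sprague Dawley, and in 5.51%, 6.94% and 3.3% of all probe sets. Postnatal minus perinatal (0.0365% of all tests called) had 2, 1 and 1 members at that unadjusted threshold, against 4.29%, 12.1% and 4.21% of all probe sets. Females minus males (0.0616% called) had 1, 3 and 2, against 6.59%, 16.5% and 9.29%. The sex difference of the mean lead effect (0.00114% called) had 1, 2 and 1, against 2.51%, 2.88% and 2.6%. The mean lead effect differed at an unadjusted p under 0.05 in 3 members between Long Evans and Fischer, 3 between Sprague Dawley and Fischer and 1 between Sprague Dawley and Long Evans, against 4.61%, 3.54% and 3.46% of all probe sets (0.073% called). The smallest adjusted p in any of these was 0.19 by limma, for females minus males in Long Evans.

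Genes that work with these channels were not called for the mean lead effect either. Of 42 calcium handling probe sets (pumps, exchangers, store and buffer genes) limma called 0 in each strain, and of 41 probe sets of channel partners (calmodulins, scaffolds, Rad-family inhibitors and release-site proteins) also 0. The smallest p of the first list was in Ryr3 in Fischer (0.09 ± 0.03), the store-operated channel gene Orai1 in Long Evans (-0.20 ± 0.05, limma, adjusted p = 0.141) and the exchanger Slc24a2 in Sprague Dawley (-0.09 ± 0.03). For the partners it was in Rims2 (0.06 ± 0.03), Rrad (0.13 ± 0.05, limma, adjusted p = 0.444) and Akap6 (-0.05 ± 0.03). Outside the mean lead effect, the first list held 1 call for exposure, a probe set of the potassium channel partner and calcium sensor Kcnip1. It was higher in postnatal than in perinatal Sprague Dawley groups by 0.21 ± 0.03 (limma, adjusted p = 0.00109). The list holds Kcnip1 probe sets at mean levels of 9.96 and 6.27, and only 1 of them gave this call. Between the Fischer label-number sets that list had 16 probe sets higher and 16 lower, and the partners 20 higher and 11 lower. Of all probe sets 60.9% were called there.

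**Figure D4:**
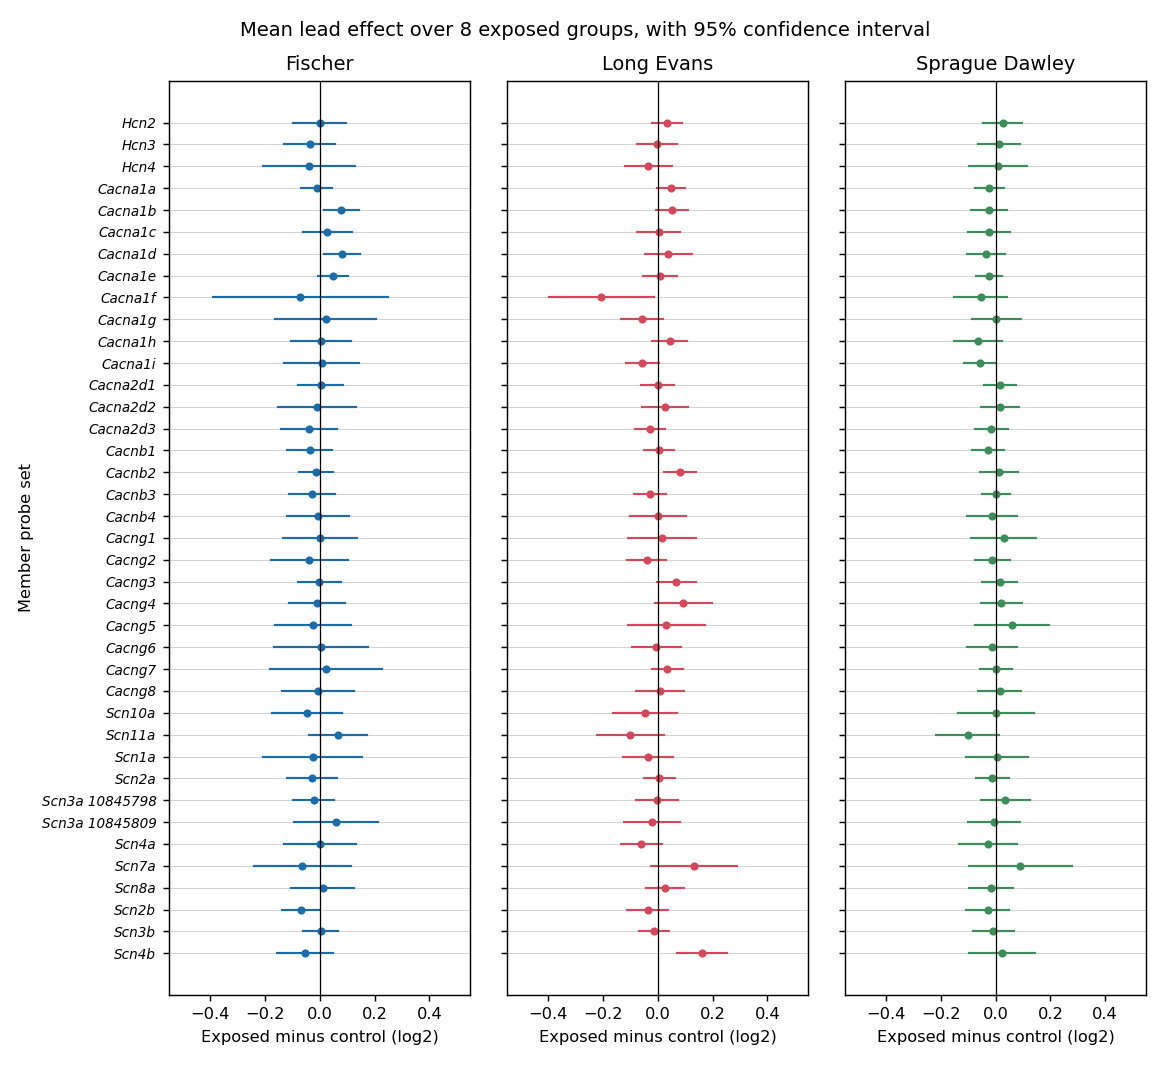
Mean lead effect (x axis, exposed minus control, log2) of each member (y axis, by gene family) in the 3 strains, with 95% confidence intervals from limma. All points lie between -0.21 and 0.16, and none was called; the interval of Scn4b in Long Evans is the one farthest above 0.

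Cacna1f, an X-linked L-type pore known from photoreceptors, was at a low level in most animals and high in 3. It was 8.62 in Fischer male postnatal 750 ppm replicate 4, 7.92 in Long Evans male control 4 and 7.60 in Fischer male control 2. The other 116 animals ranged from 6.19 to 6.90, with a median of 6.56. The same 3 arrays were also the highest of all, except for Aanat, in genes that the pineal gland shares with photoreceptors or uses to make serotonin and melatonin, a list drawn up after the values were seen.

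The serotonin synthesis gene Tph1 was 12.98, 12.68 and 12.20 in these arrays and at most 10.05 in the others. The photoreceptor transcription factor Crx was 9.96, 9.65 and 8.76, against at most 6.77, and the cone transducin gene Gnat2 10.73, 10.16 and 9.56, against at most 7.18. The retinoid-binding gene Rbp3 was 9.64, 9.22 and 8.64, against at most 6.39. Of the melatonin enzymes, Asmt was 8.57, 8.28 and 7.89, against at most 7.81, while Aanat, at 7.85 to 8.05, was within the range of the others. Of the 39 members, 28 lay inside the range of their own strain and label-number set in all 3 arrays, 7 lay outside it in 1 array, 3 in 2 arrays and Cacna1f in all 3. Each range rested on 19 other animals, so random spread alone puts some values outside it. The share of all probe sets outside is not given here, so these counts do not set the channel genes apart from other genes. Cacna1f was called in no lead comparison.

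**Figure D5:**
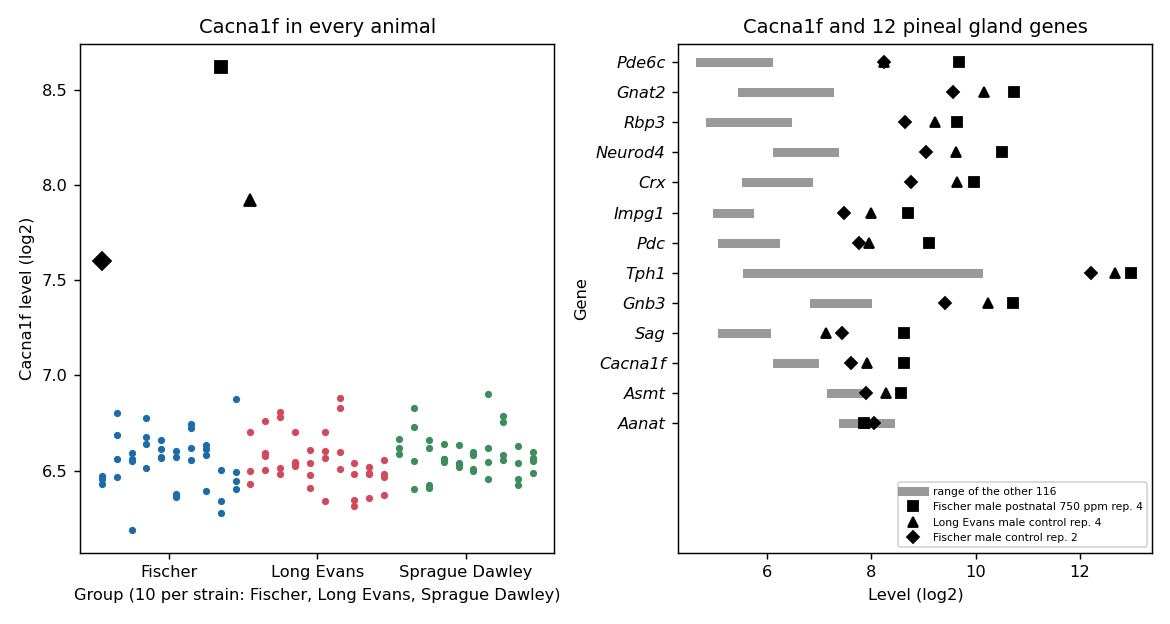
Left, Cacna1f log2 level (y axis) in every animal by group, with 3 arrays marked by black symbols at 7.60 to 8.62. Right, log2 levels (x axis) of Cacna1f and 12 pineal gland genes in those arrays (symbols) and the range of the other 116 (grey bars); every gene except Aanat lies above the grey range in all 3.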

How the data were processed

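Hippocampal RNA was measured on Affymetrix Rat Gene 1.0 ST arrays. The deposited values are log2 intensities that the authors made with RMA in Partek, per the submitters' processing notes, with versions not given. RMA places the arrays on 1 scale and can hide a shift shared by all probe sets. No further normalization was applied. Probe sets were named by the platform's annotation, and 39 of 39 members matched RefSeq genes of GRCr8. The number of arrays limits the precision.

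Limma 3.58.1 in R 4.3.3 was fitted across all 29214 probe sets, within each strain for lead, dose, period, sex and label-number contrasts (the last with group terms), and over all strains for controls and for lead effects between strains. P-values were two-sided and adjusted by the Benjamini-Hochberg method, with calls under 0.05. Animals entered as independent, since litters were not given. Replicate numbers only name animals and pair none across groups.

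Members and gene lists were chosen with earlier results of these data known. By rule, members named with values were any called for lead, dose, period, sex or interactions, the extremes of each strain and label-number contrast, the 2 with the smallest p of each mean lead effect, and the main brain subunits. Cacna1f, the Scn11a values and the pineal gene list were chosen after their values were seen. Alternatives were a quantile normalization, a filter at the 40th percentile, array weights, the label-number sets as a block or alone, choroid plexus or thalamus marker means as covariates, strain means over all 5 treatments, and leaving out arrays or single animals. Leaving out the arrays high in pineal genes, the 5-treatment means within each label-number set and the test of label-number differences between strains were added after the values were seen. The fits were tested on simulated data.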

Additional observations from a re-analysis of the deposited data

Results flagged for a closer look

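Within groups of 4, an animal was singled out where its gap to the nearest other exceeded Dixon's 95% critical value. Of 79 groups tested, 6 had such an animal, and chance alone marks about 1 in 20. For Cacna1f these were Fischer male control 2 (7.60, the others 6.43 to 6.47), Fischer male perinatal 250 ppm replicate 3 (6.19, the others 6.55 to 6.59) and Fischer male postnatal 750 ppm replicate 4 (8.62, the others 6.28 to 6.50). The Cacna1f values of Long Evans female perinatal 250 ppm replicate 3 (6.70, the others 6.53 to 6.55) and Sprague Dawley male postnatal 250 ppm replicate 1 (6.64, the others 6.52 to 6.54) stood apart by little. The Cacnb2 level of Sprague Dawley female control 1 was 10.16, with the others at 10.06 to 10.07.

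The difference between label-number sets was not the same in the strains. Limma called the difference of these differences in 22 members for Long Evans minus Fischer, 24 for Sprague Dawley minus Fischer and 5 for Sprague Dawley minus Long Evans. In the same order, 43.3%, 55.3% and 10.5% of all probe sets were called. What the numbers in the labels stand for was not given, and its part in these differences was not tested.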

How the results depend on the processing

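Limma called 0 members for lead, dose, period, sex and their interactions under every alternative run and without each animal in turn. The strain comparisons of controls moved more. The counts below are given without the share of all probe sets called under each alternative, so they do not set the channel genes apart from other genes. Long Evans minus Fischer called 10 members, and 5 within lower label numbers, 19 within upper ones, 32 over all 5 treatments, and over all 5 treatments 19 within lower and 29 within upper numbers. Sprague Dawley minus Fischer called 7, and 13 within upper numbers, 18 over all 5 treatments, and 24 and 23 there within lower and upper numbers. Sprague Dawley minus Long Evans called 11, and 17 with the label-number sets as a block, 28 over all 5 treatments, 29 and 27 there within lower and upper numbers, and 7 once arrays against their sex label were left out. The strain means over all 5 treatments use more animals. Otherwise the cause was not tested. Cacna1b in Sprague Dawley minus Fischer turned to -1.2e-05 over all 5 treatments within lower label numbers. Leaving out 1 animal at a time gave 10 to 12, 5 to 8 and 8 to 13 called members in these 3 comparisons, 24 to 26 between the Fischer label-number sets and 7 to 10 between those of Sprague Dawley. No paired analysis was possible because the replicate numbers do not tie animals of different groups. Probe sets near the low end of the array, such as Scn7a and Scn11a, have little signal over background.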
